A study of Mus musculus with 18 samples.

Results

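Wide domains of H3K36me2, the dimethylated form of lysine 36 on histone H3, were examined in cultured mouse B cells. They were chosen from the 3 H3K36me2 peak lists of WT cells. Peaks on chromosomes 1 to 19 that shared at least 1 bp were merged, and a merged interval was kept when it spanned at least 10000 bp and held a peak from all 3 lists. This gave 2961 domains of 146005 merged intervals (2.03%), and they held 20.6% of the merged bases. All 2961 merged intervals of that width had a peak in every WT list, and a further 23295 narrower intervals also had a peak in every list. The WT H3K36me2 values therefore chose the domains and are described without a test.

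The cells were splenic B cells of C57BL/6 background mice that were either Mir155-sufficient (WT) or Mir155-deficient (KO). They had been purified by removing cells positive for CD43, Ter119 or CD4, stimulated with anti-CD40, F(ab')2 anti-IgM and IL-4, and kept at 1% oxygen for 2 days, in both genotypes alike. Chromatin was fixed with EGS, a long crosslinker, and formaldehyde, and was precipitated with an antibody to H3K36me2 or to KDM2A. Each antibody had 3 libraries per genotype, where replicate 1 was male and replicates 2 and 3 were female. Nothing in the labels says more about how the replicates were raised, so p-values measure the spread between these libraries, and 1 male library per genotype cannot separate sex from replicate.

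H3K36me2 is written mainly by the NSD family of methyltransferases and is removed by KDM2A and KDM2B. It lies over broad stretches between genes and inside gene bodies, where it favours DNA methylation through DNMT3A and hinders the addition of H3K27me3. KDM2A carries a CXXC zinc finger that binds unmethylated CpG dinucleotides, which places it at CpG islands, the CpG-rich stretches found at many gene starts. MiR-155 is a microRNA of activated B cells, and the study asked whether its absence changes where KDM2A and H3K36me2 lie.

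The base composition of the domains is visible in the following windows, each of 300 bases from the plus strand of GRCm38.p6 (RefSeq), written 5′ to 3′ with each CpG in capitals. The first pair is from the centres of domains among the 10 widest, at chr12:79960435-79960734 between protein-coding genes near Zfp36l1 (3 CpGs) and at chr9:32640287-32640586 in an intron of Ets1 (1 CpG). The next 4 are from the centres of intervals within domains where all 6 KDM2A lists had a peak. They lie at chr4:129585217-129585516 overlapping a CpG island in the domain over Lck and Fam167b (17 CpGs), at chr17:29437450-29437749 near Fgd2 overlapping a CpG island (14 CpGs), at chr5:123382165-123382464 near Mlxip outside any island (7 CpGs), and at chr9:57974067-57974366 near Cyp11a1 outside any island (0 CpGs). They are shown because the KDM2A peaks in domains are later divided by CpG island.
Zfp36l1 domain centre: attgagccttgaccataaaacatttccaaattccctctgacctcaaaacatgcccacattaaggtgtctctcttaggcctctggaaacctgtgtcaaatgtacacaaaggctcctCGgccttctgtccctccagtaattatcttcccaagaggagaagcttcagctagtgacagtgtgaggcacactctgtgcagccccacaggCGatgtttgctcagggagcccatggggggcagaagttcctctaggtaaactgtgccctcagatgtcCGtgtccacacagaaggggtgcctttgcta
Ets1 domain centre: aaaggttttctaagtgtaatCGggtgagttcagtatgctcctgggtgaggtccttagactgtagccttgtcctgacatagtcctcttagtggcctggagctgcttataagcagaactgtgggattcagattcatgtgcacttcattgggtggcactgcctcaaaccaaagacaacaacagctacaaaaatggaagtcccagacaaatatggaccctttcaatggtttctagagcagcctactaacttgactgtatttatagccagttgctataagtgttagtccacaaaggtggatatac
Lck and Fam167b KDM2A interval, CpG island: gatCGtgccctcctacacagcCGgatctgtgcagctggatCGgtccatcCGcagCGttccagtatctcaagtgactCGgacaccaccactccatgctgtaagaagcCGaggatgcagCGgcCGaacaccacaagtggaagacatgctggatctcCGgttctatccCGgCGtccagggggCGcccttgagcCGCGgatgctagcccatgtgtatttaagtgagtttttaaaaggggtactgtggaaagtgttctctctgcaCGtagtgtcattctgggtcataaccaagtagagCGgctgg
Fgd2 KDM2A interval, CpG island: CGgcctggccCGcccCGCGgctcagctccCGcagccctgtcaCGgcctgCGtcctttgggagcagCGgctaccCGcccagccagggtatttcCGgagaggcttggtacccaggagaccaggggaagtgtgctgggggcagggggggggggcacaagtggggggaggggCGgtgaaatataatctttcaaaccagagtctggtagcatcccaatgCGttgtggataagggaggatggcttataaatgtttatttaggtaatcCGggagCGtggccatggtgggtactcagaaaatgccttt
Mlxip KDM2A interval, no island: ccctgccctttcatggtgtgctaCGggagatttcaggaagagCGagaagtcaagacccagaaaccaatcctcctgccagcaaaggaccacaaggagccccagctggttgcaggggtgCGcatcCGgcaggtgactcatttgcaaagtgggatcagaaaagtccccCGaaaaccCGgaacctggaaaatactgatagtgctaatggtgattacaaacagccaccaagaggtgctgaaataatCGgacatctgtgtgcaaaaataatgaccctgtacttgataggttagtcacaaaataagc
Cyp11a1 KDM2A interval, no island: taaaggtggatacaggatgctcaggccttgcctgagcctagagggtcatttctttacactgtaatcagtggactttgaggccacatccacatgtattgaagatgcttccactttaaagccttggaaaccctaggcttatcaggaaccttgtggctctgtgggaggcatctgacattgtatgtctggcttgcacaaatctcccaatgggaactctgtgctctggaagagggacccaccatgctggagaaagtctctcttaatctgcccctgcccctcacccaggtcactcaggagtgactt
Among the 3 windows with fewest CpGs is one at the centre of a KDM2A interval, the one near Cyp11a1. That interval merges peaks of all 6 lists over 6099 bp, so the window does not show which lists had a peak at its centre.

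The domains covered 53.7 Mb, or 2.24% of the sequenced autosomal bases. Their median width was 14337 bp (quartiles 11645 and 19867 bp) and the widest spanned 152975 bp. At least 20 kb was reached by 731 domains, 50 kb by 79 and 100 kb by 8. Domains lay in clusters, since 861 of 2942 gaps between neighbours (29.3%) were under 10 kb, while the median gap was 46856 bp. Chromosome 10 had the most domains per Mb (1.98) and chromosomes 18 and 14 had the fewest (0.526 and 0.716).

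More than any other place, the domains lay between protein-coding genes. Of 2961 domains, 1638 (55.3%) touched no protein-coding gene in GENCODE M21, 745 lay wholly within a gene, 431 held a gene start and 147 overlapped part of a gene without its start. Of the 1638, 671 touched a gene of another type. Protein-coding gene bodies made up 30.6% of domain bases, against 41.4% of the autosomes and 47.7% of the bases of the narrower intervals with a peak in every WT list. GC content was 45.1% at the median domain and 44.7% at the median narrower interval, and the autosomes as a whole had 41.9%. Of 15611 autosomal CpG islands, 319 (2.04%) touched a domain, which is close to the share of the autosomes that the domains cover.

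The domains also had a side relative to gene starts. Over the 9678 protein-coding genes longer than 20 kb, 5.11% of the bases 10 to 11 kb upstream of the start lay in a domain, against 2.16% of those 10 to 11 kb downstream. At 5 to 6 kb the shares were 4.62% upstream and 2.02% downstream. For the 6655 of these genes with a CpG island at their start the share was 1.27% in the first kb downstream and stayed low, at 1.22% between 3 and 4 kb. For the 3023 genes without an island it was 5.09% in the first kb and 3.73% between 3 and 4 kb. These shares come from the lists that chose the domains, so they are given as a description.

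Under KO the same domains were less covered in every library. Mean H3K36me2 coverage of a domain, the percent of its bases under peaks, was 62.3, 72.1 and 72.4% in WT replicates 1, 2 and 3, and 46.0, 25.5 and 23.6% in KO replicates 1, 2 and 3. The genotype means were 68.9 ± 5.76% in WT and 31.7 ± 12.4% in KO (SD, n = 3 libraries each). Every KO list was below every WT list, and KO replicate 1 stood apart from the other KO lists. Coverage of at least 50% was found in 2296, 2717 and 2740 domains in the WT lists but in 1217, 254 and 134 in the KO lists. In 2110 domains (71.3%) every KO list was below every WT list, compared with 52.3% of the 26256 WT intervals of any width with a peak in all 3 lists. In no domain was every KO list above every WT list. Because WT peaks set the domain borders, these counts lean towards WT and were not tested.

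**Figure D1:**
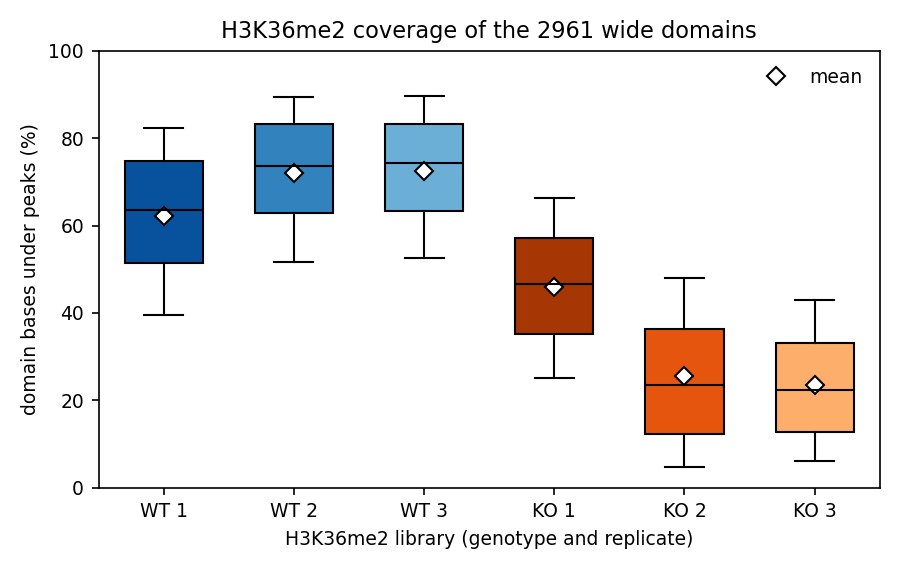
Percent of each domain's bases under H3K36me2 peaks (vertical axis) in each of the 6 H3K36me2 libraries (horizontal axis), over all 2961 domains. Boxes span the quartiles with the median as a line, whiskers run from the 10th to the 90th percentile and diamonds are means, which lie between 62.3 and 72.4% in WT and between 23.6 and 46.0% in KO.

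Most domains were still covered in part in KO. A base under a KO peak was found in all 3 KO lists in 2725 domains (92.0%), and no domain was empty in all of them. Domains without any KO peak numbered 2 in replicate 1, 158 in replicate 2 and 94 in replicate 3. KO peaks in domains, which were chosen for width in WT, were shorter. Their median width was 2009, 3084 and 2865 bp in WT and 1126, 1185 and 882 bp in KO. Outside domains the medians were 793, 955 and 884 bp in WT and 619, 799 and 624 bp in KO. The widest peak of a domain had a median width of 4939, 6932 and 6798 bp in WT and 2957, 2007 and 1664 bp in KO, while the number of peaks per domain stayed at a median of 3 to 5 in every list. Single peaks of at least 10 kb anywhere on the autosomes numbered 406, 878 and 819 in the WT lists and 44, 28 and 3 in the KO lists. Of the domain bases under peaks in all 3 WT lists (36.9% of domain bases), 20.4% were under no KO peak, 40.8% under peaks of 1 KO list, 29.1% of 2 and 9.63% of all 3.

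KO replicate 1 had the longest H3K36me2 list of all, with 106528 autosomal peaks, against 37254 and 44982 in KO replicates 2 and 3 and 85274 to 93535 in WT. Its coverage was the highest of the KO lists in 2354 domains (79.5%), and without it mean KO coverage was 24.6%. Male KO lay 16.3 percentage points below male WT, and female KO lay 47.7 points below female WT. When every list was cut to its 37254 strongest peaks by fold, 2139 domains were found, with mean coverages of 56.8, 69.2 and 69.2% in the WT lists and 31.0, 28.9 and 25.1% in the KO lists. KO replicate 1 then lay close to the other KO lists. With peaks of −log10 q of at least 2 alone, 507 domains were found, and the lists covered 54.1, 71.9 and 56.1% in WT but 26.7, 6.14 and 3.50% in KO, a KO mean of 12.1%. List lengths were left unequal at this cut, and the shortest H3K36me2 list held 2865 peaks. Read depths are unknown, and the part of depth in these differences was not tested.

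In the 2 female KO lists, the shortfall against WT was smaller in relative terms in the domains than over the rest of the autosomes. Outside domains 3.36, 4.48 and 4.38% of bases were under WT peaks and 3.10, 1.196 and 1.08% under KO peaks. The ratio of coverage inside to outside was thus 19.4, 16.6 and 16.996 in WT and 15.8, 23.5 and 24.3 in KO. KO replicate 1 lay below all WT lists and the other KO lists lay above them.

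To compare genotypes on domains that a WT list had not helped to choose, each WT list was left out in turn and domains were called from the other pair by the same rule. Leaving out replicate 1, 2 or 3 gave 2231, 1761 and 1778 domains. The held-out WT list covered 61.8, 71.6 and 72.3% of them on average, and each of these domains had at least 1 base under it. The KO lists covered 49.6, 28.6 and 26.8% in the first round, 52.8, 30.4 and 28.7% in the second and 52.1, 30.5 and 28.6% in the third. Every KO list was thus below the held-out WT list in each round. The mean of the KO lists was 26.8, 34.3 and 35.3 percentage points lower. A single held-out library per round allows no test, and the 3 rounds share libraries.

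The ratio of mean KO to WT coverage was higher in wider intervals, while the gap in percentage points was larger. In the held-out rounds, intervals under 2 kb had a ratio of mean KO to held-out WT coverage of 0.496, 0.400 and 0.393, and intervals of at least 20 kb had 0.606, 0.561 and 0.550. The order held across the 5 width classes in every round. In the first round the mean of the KO lists was 11.9% against 24.0% in held-out WT under 2 kb, and 42.4% against 70.0% at 20 kb or more. The other rounds had the same order. KO replicate 1 alone went the other way in the first round, with 20.4% against 24.0% under 2 kb and 56.6% against 70.0% at 20 kb or more, a lower ratio in the wide intervals. Among the domains themselves, mean KO coverage was 28.2% at 10 to 15 kb (1628 domains), 36.7% at 20 to 30 kb (463 domains) and 45.0% at 50 kb or more (79 domains). Over the 2961 domains, Spearman's rank correlation between width and mean KO coverage was 0.40, a description over domains that share the same libraries. The 100 narrowest domains (10000 to 10187 bp) had KO coverages of 41.6, 20.6 and 17.9%, and the 100 intervals just below the limit (9813 to 9997 bp) had 37.1, 19.1 and 16.9%.

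**Figure D2:**
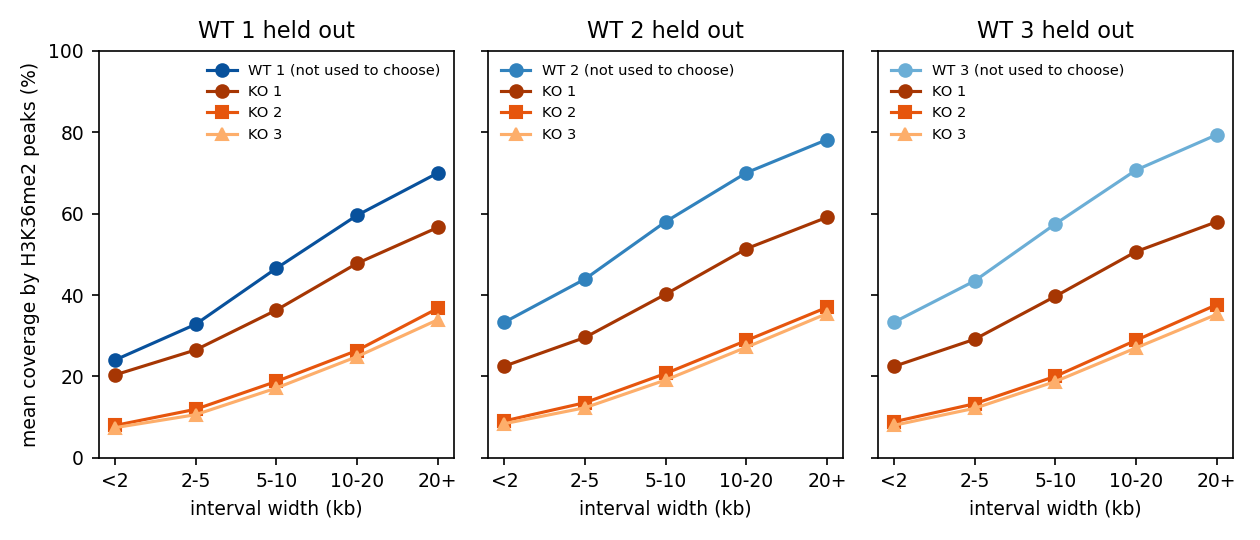
Mean H3K36me2 coverage (percent of interval bases, vertical axis) of intervals called from 2 WT lists, by width class in kb (horizontal axis), in the WT list left out and in the 3 KO lists, 1 panel per round. In each panel all lines climb with width, and the KO lines stay below the WT line, as at 20 kb or more in the first round, where WT replicate 1 has 70.0% and the KO lists have 56.6, 36.7 and 33.9%.

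Most of the 10 widest domains touched no protein-coding gene, and some lay far from any protein-coding start. The widest lay at chr12:79884098-80037072 (152975 bp), 75.9 kb from the start of Zfp36l1, which encodes an RNA-binding protein that promotes mRNA decay. WT lists covered 88.4, 90.8 and 87.4% of it and KO lists 72.2, 37.9 and 42.3%. Its neighbour at chr12:79738588-79866738 (128151 bp) reached into Rad51b, a gene of homologous recombination, and had 77.3, 84.4 and 79.7% in WT and 61.2, 28.2 and 31.2% in KO. In both, every KO list was below every WT list.

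A domain of 109565 bp at chr9:32585655-32695219 held the start of Ets1, a transcription factor that restrains plasma cell differentiation. It was 79.3, 77.7 and 82.0% covered in WT and 58.9, 45.6 and 37.4% in KO. A domain of 103745 bp at chr4:119930813-120034557 lay inside Hivep3, a zinc finger transcription factor gene, with 88.2, 85.6 and 87.5% in WT and 76.7, 25.3 and 33.9% in KO. The remaining 6 had Gadd45g, Rap1b, Map3k1, Ralgps2, Sik1 and Cog6 as the gene with the nearest start, at distances from 13304 bp (Sik1) to 207393 bp (Gadd45g) and 328102 bp (Cog6). Only in the one near Cog6 did a KO list (67.6% in replicate 1) reach a WT list (67.5% in replicate 2).

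**Figure D3:**
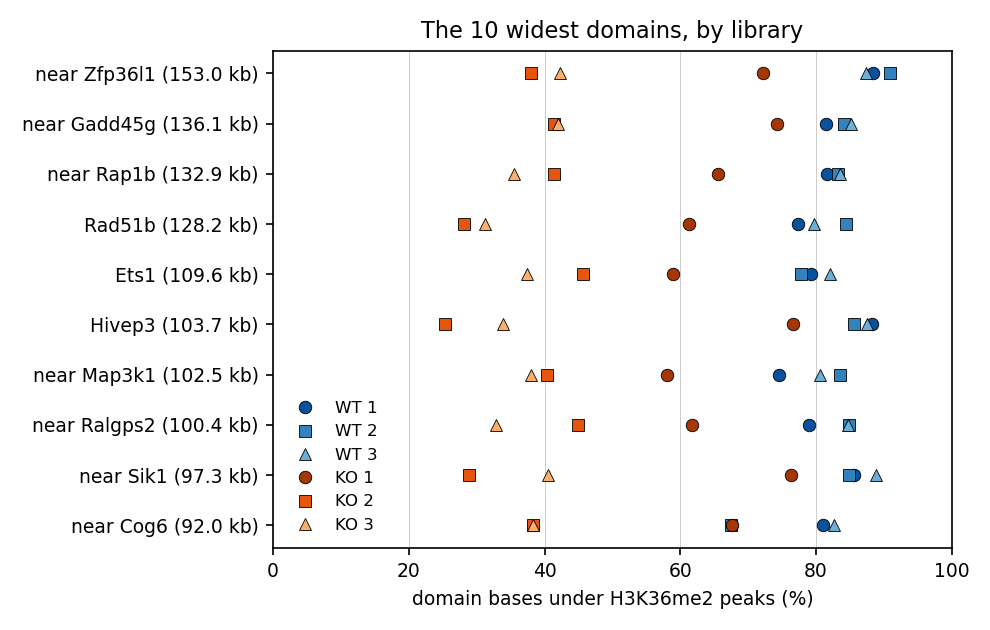
Percent of bases under H3K36me2 peaks (horizontal axis) in each of the 10 widest domains (rows, with the protein-coding gene they touch or lie nearest to and their width), in the 6 libraries. KO replicates 2 and 3 lie between 25.3 and 45.6% in all 10, and KO replicate 1 lies between them and WT except near Cog6.

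At the other extreme of the KO values, the 5 domains with the highest mean KO coverage were near Gvin1, over Ccr1 and Ccr1l1, near Mef2c, near Gm5426 and near Mef2a. The domain near Gvin1, an interferon-inducible GTPase gene, lay at chr7:106235034-106256410 and had 88.5, 92.4 and 99.7% in WT and 74.97, 78.3 and 77.9% in KO. The one over the chemokine receptor gene Ccr1 had 69.9, 93.3 and 89.6% in WT and 60.7, 86.2 and 78.1% in KO. The one near Mef2c, a MADS-box transcription factor gene, had 77.8, 59.3 and 73.7% in WT and 69.0, 80.8 and 67.3% in KO, so the genotypes overlapped there. The lowest mean KO coverage was near Uchl5, Ccdc32 and Cplx2 and over parts of Atp10b and Macrod1. The domain within Macrod1, an ADP-ribosylhydrolase gene, had 59.7, 61.3 and 71.9% in WT and 4.55, 0 and 3.03% in KO. These 10 domains were picked by their KO values and are a description of the range.

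By the same rule the KO lists gave 387 wide domains over 5.18 Mb, with a median width of 12027 bp and a largest width of 48144 bp. This number rested on every list, and was 80, 130 and 206 without KO replicate 1, 2 and 3. Of these, 369 (95.3%) overlapped a WT domain, and 343 WT domains (11.6%) overlapped a KO domain. Coverage of the KO domains was 73.8, 80.9 and 81.5% in the WT lists and 72.9, 55.8 and 48.1% in the KO lists. KO replicates 2 and 3 were thus lower than WT even in domains that the KO lists had chosen. The widest KO domain lay at chr10:96376392-96424535, outside protein-coding genes, and the next one, at chr7:101060350-101101866, lay in Fchsd2. Another at chr12:113231557-113258777 fell inside a WT domain at the immunoglobulin heavy chain locus.

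Among genes, 1102 of 20807 autosomal protein-coding genes (5.30%) had at least 1 base in a domain, and 502 had their start in one. The share touched was 2.30% of genes under 5 kb, 13.7% of those between 100 and 200 kb and 12.8% of longer ones. The mean percent of a gene's bases in domains did not climb with length in this way, with 1.68% in the shortest class, 2.40% between 100 and 200 kb and 1.55% above. The gene with the most domain bases that is not a readthrough model was Rad51b (226 kb in 7 domains, 43.7% of its length). Its gene body was 48.5, 56.99 and 55.4% covered by H3K36me2 peaks in WT and 33.2, 18.2 and 19.3% in KO. Rasgef1b, a Ras guanine nucleotide exchange factor gene, followed with 193 kb, and Foxp1, a forkhead factor of B cell development, had 163 kb. Foxp1 was 28.2, 30.4 and 29.4% covered in WT and 22.5, 14.4 and 11.6% in KO. Lpp, Hivep3, Cmss1, Cacna1d, Tg, Filip1l, Med12l, Bcar3, Ninj2, Prkce, Sept9, Efcab11, Hecw2 and Gse1 had between 87.8 and 126.3 kb each. Gm20388, Gm20696 and Fgfr2 also ranked high, but their annotated models reach over other genes, as Gm20696 does over Foxp1, so their bases are counted more than once. Filip1l overlaps Cmss1, and P2ry12 overlaps Med12l, so domain bases they share are also counted in both.

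Some genes lay almost whole in domains. Of genes longer than 20 kb, those with the largest shares included Pigr (100%), the epithelial transporter of polymeric immunoglobulin, then Fam83f, Bco2, Sspn, Itgax (95.6%), the integrin CD11c, Ifi202b, P2ry12, an ADP receptor of platelets and microglia, Slc36a3 and Rapgef3. Pigr was 65.2, 85.5 and 94.98% covered in WT and 54.0, 59.5 and 52.0% in KO. In each of the genes named here the mean of KO was below that of WT, but in Ifi202b the genotypes overlapped (37.1, 57.5 and 83.7% in WT, 50.8, 58.3 and 44.7% in KO).

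Of 29 genes of B cell identity and activation, 10 had a base in a domain (34.5%, against 5.30% of all genes and 5.38% of genes between 20 and 50 kb, the class that holds their median length of 39.9 kb). The overlap was large in 4 transcription factor or survival genes. Bcl2, which blocks apoptosis, had 86.4 kb in 4 domains (49.1% of the gene) and was 52.4, 58.8 and 55.7% covered in WT and 38.2, 25.1 and 24.7% in KO. Ets1 had 59.0 kb in its domain, Foxo1 had 22.9 kb, and Foxp1 is given above. Foxo1, a forkhead factor needed for B cell development, was 33.3, 42.3 and 41.0% covered in WT and 22.2, 6.64 and 4.82% in KO. Syk, Cd86, Bank1, Blk, Irf4 and Ikzf1 were touched over 0.264 to 2.95 kb, and in all of these but Bank1 the coverages of WT and KO overlapped. Syk, for example, a kinase of B cell receptor signalling, was 11.2, 13.4 and 13.02% covered in WT and 11.5, 2.58 and 2.72% in KO. The 19 others, among them Ms4a1, Cd79a, Cd79b, Pax5 and Ebf1, touched no domain.

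T cell genes were touched in 4 of 14 cases (28.6%), and the mean share of a T cell gene in domains was 10.3%, against 5.68% for the B cell list and 1.73% for all protein-coding genes. The 4 are Tcf7 (66.8% of the gene), Zap70 (47.5%), Cd247 and Lck. Tcf7, a transcription factor of T cells, was 58.7, 48.9 and 61.8% covered in WT and 42.6, 7.96 and 5.58% in KO. Myeloid genes were touched in 3 of 15 cases (20%, against 5.30% of all genes), which are Spi1 (48.2% of the gene), Adgre1 and Itgam. Spi1 encodes PU.1, which B cells use as well, and it was 46.7, 39.9 and 39.7% covered in WT and 45.2, 1.44 and 16.5% in KO. Among 12 neuronal genes 1 was touched, Camk2a. No gene was touched among 8 erythroid genes, 13 genes of H3K36 methyltransferases and demethylases, 12 genes of readers of H3K36 methylation and associated proteins, 19 genes of hypoxia and glycolysis, and 7 mitochondrial genes that the study had named. At 5.30% of all genes, lists of this size hold few or no touched genes, so nothing is read from these counts of 0. Peak lists hold no expression values, so the labelled cell type could not be checked against marker expression, and the mark over T cell and myeloid genes does not say which cells carried it.

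KDM2A was measured with another antibody in other libraries, and its peaks were not used to choose the domains. The libraries of both antibodies carry the same replicate numbers and sexes, and whether they share more than that was not tested. Peaks were assigned by their centre. WT lists had 3372, 2595 and 2897 KDM2A peaks in domains and KO lists had 1479, 1387 and 2292. That was 55.1 ± 7.30 peaks per Mb in WT and 32.0 ± 9.28 in KO (SD, n = 3), with no overlap between the genotypes (exact permutation test over libraries, two-sided, p = 0.1 and adjusted p = 0.2, where 0.1 is the lowest value that 3 against 3 can reach). Over the whole autosomes the KO lists also held fewer KDM2A peaks (15619, 15241 and 21483, against 29016, 23138 and 26578 in WT). A KDM2A peak was present in 1582, 1326 and 1460 domains in WT and in 924, 897 and 1224 in KO. In 403 domains (13.6%) all 6 lists had a peak, and in 680 (23.0%) none had.

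The peak density in domains was also divided by that over the rest of the autosomes in the same list. This does not set aside list length, as the shortest lists, KO replicates 2 and 1, had the lowest ratios. The WT libraries had ratios of 5.74, 5.51 and 5.34 and the KO libraries 4.56, 4.37 and 5.21, so KDM2A peaks were denser in domains in every library. KO was lower by 0.815 on average, and each KO value lay below each WT value (exact permutation test, two-sided, p = 0.1, adjusted p = 0.2 over 8 measures). With the lists of each antibody cut to the same number of strongest peaks, the mean ratio was 5.73 in WT and 5.06 in KO (exact permutation p = 0.1). The genotypes overlapped when domains had to reach 20000 bp, and when WT H3K36me2 replicate 3 was left out of choosing them (exact permutation p = 0.2 in both). By sex, KO minus WT was −1.17 for the males and −0.635 for the females. In narrower intervals with a peak in every WT list WT libraries had a ratio of 3.73 ± 0.0633 and KO libraries one of 3.47 ± 0.104 (SD, n = 3), below that of the wide domains in all 6 libraries.

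The ratio differed greatly between peaks at and off CpG islands. Off islands, WT replicates 1 to 3 had 7.91, 8.41 and 7.49 and KO replicates 1 to 3 had 7.99, 7.47 and 8.02, and the genotypes overlapped (exact permutation p = 0.9, adjusted p = 1). At islands it was close to 1 in every library, with 1.02, 1.02 and 1.05 in WT and 1.06, 0.993 and 1.05 in KO (exact permutation p = 1, adjusted p = 1). Within neither kind of peak, then, did the ratio separate the genotypes with all deposited peaks. When each list was cut to the same number of strongest peaks, however, the ratio off islands was 10.3 in WT and 9.01 in KO (exact permutation p = 0.1). Peaks at an island were 6.49 ± 0.844% of KDM2A peaks in domains in WT and 10.1 ± 1.80% in KO (SD, n = 3, exact permutation p = 0.1, adjusted p = 0.2). Outside domains they were 34.7% in WT and 45.8% in KO. In absolute terms the island peaks in domains numbered 189, 189 and 191 in WT and 169, 151 and 185 in KO, while those off islands numbered 3183, 2406 and 2706 in WT and 1310, 1236 and 2107 in KO.

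**Figure D4:**
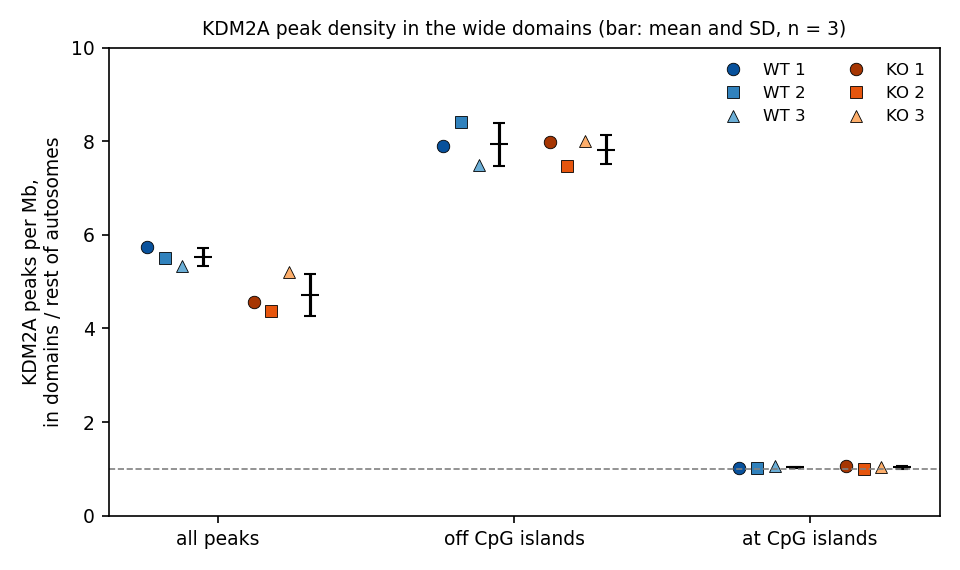
Ratio of KDM2A peaks per Mb inside the domains to that over the rest of the autosomes (vertical axis) for all KDM2A peaks and for those off and at CpG islands, with 1 point per library and the mean and SD (n = 3) beside them. The dashed line marks a ratio of 1, where the island peaks lie in both genotypes, and the off-island points lie between 7.47 and 8.41.

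KDM2A coverage was highest just outside the borders of the domains. In bins of 500 bp from each border, KDM2A peaks covered most bases at 0.5 to 1 kb outside, with 8.94, 7.10 and 7.14% in WT and 5.62, 4.59 and 6.89% in KO. At 4.5 to 5 kb inside they covered 6.64, 3.595 and 4.75% in WT and 2.07, 1.52 and 2.92% in KO. CpG islands peaked in the same bin, where 3.45% of bases were in an island, against 0.847% at 9.5 to 10 kb outside and 0.162% at 4.5 to 5 kb inside. Off islands, KDM2A peaks covered 3.83, 2.53 and 2.77% of that bin in WT and 1.71, 1.27 and 2.46% in KO, and it was not the highest bin in any of the 6 lists, although KO replicate 1 had a small local high there. Of 5922 domain borders, 411 (6.94%) had an island within 2 kb beyond them, and the borders of narrower intervals had a similar share (6.62%). A KDM2A peak lay beyond 89.1, 89.8 and 86.9% of these 411 borders in WT and 83.2, 80.3 and 86.4% in KO, against 5.15 to 12.7% of the other borders. H3K36me2 peaks in KO covered 11.1, 1.90 and 2.37% of the 2 kb beyond island borders and 29.1, 13.9 and 13.3% beyond the others, so coverage beyond island borders was low in KO as well, where the border was not set by KO peaks.

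**Figure D5:**
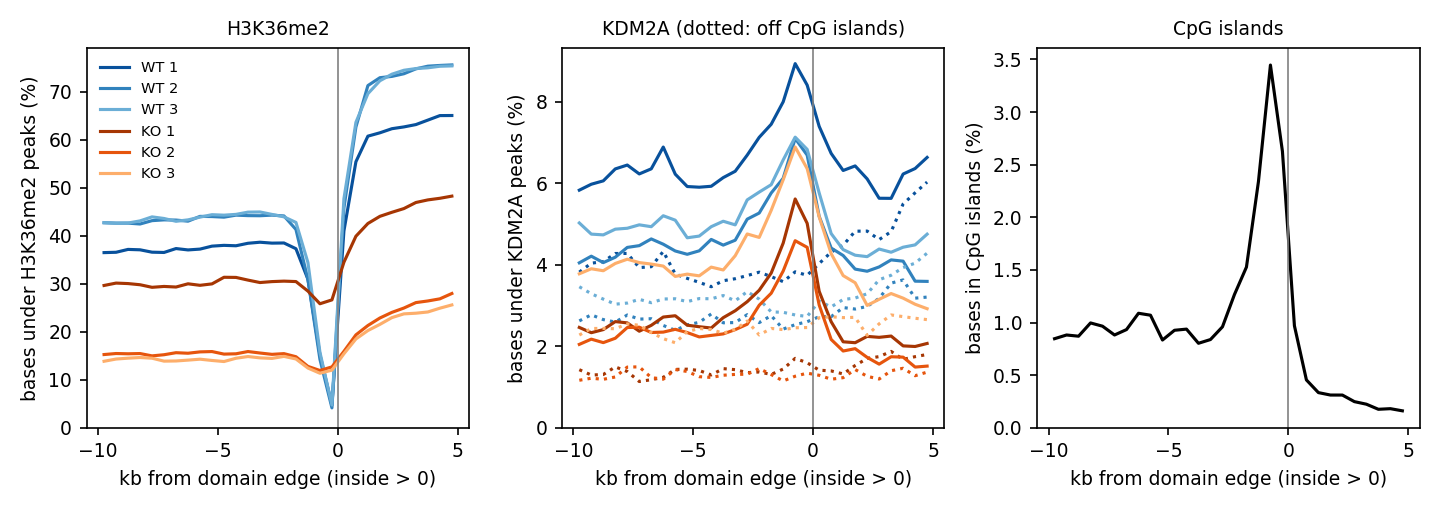
Percent of bases under H3K36me2 peaks, under KDM2A peaks (solid, all; dotted, off CpG islands) and in CpG islands (vertical axes), in bins of 500 bp by distance in kb from the domain border (horizontal axis, outside negative), over 5922 borders. The WT H3K36me2 dip at the border follows from how domains were called. The KDM2A crest of 4.59 to 8.94% lies 0.5 to 1 kb outside, in the bin where islands reach 3.45%.

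KDM2A strength was compared at places where all 6 KDM2A lists had a peak. Places where any list lacked a peak were left out, so the comparison does not cover peaks present in 1 genotype alone. There were 5236 such intervals on the autosomes and 307 of them lay in 256 domains. A CpG island was present at 41.7% of those in domains and at 89.2% of the others. The authors' fold of each peak, its signal over background, was taken on the log2 scale, centred on the median of each library and tested with limma over all 5236 intervals. None passed an adjusted p of 0.05 (percent called 0), and the smallest Benjamini-Hochberg adjusted p from limma was 0.899. At an unadjusted p under 0.05, 11 of the 307 were called, 7 higher and 4 lower in KO, which is 3.58% against 5.31% of all intervals (3.13% higher and 2.18% lower). The libraries of the genotypes did not overlap in 36 of 307 (11.7%), against 10.6% of all intervals. The median log2 change was 0.01 in domains and 0.00201 over all intervals. The count of members called is close to or below that over all intervals.

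The intervals in domains with the largest differences stayed within a narrow range. The highest in KO were near Egr1 (log2 difference 0.34 ± 0.11, SE), in Arap1 (0.30 ± 0.10) and in Adamtsl4 (0.29 ± 0.13), and the lowest were near Fgd2 (−0.30 ± 0.13), near Mlxip (−0.29 ± 0.10) and in Gm20388 (−0.29 ± 0.17), all with a limma adjusted p of 0.899. On the deposited scale, before centring on each library, the interval near Mlxip had a fold of 3.37 ± 0.0169 in WT libraries and 2.65 ± 0.211 in those of KO (SD, n = 3). In Arap1, a gene of a GTPase-activating protein, WT on the same uncentred scale had 2.72 ± 0.122 and KO had 3.22 ± 0.246. The most such intervals in a single domain was 3, and this occurred over Lck and Fam167b, in Ralgds, over Itgal and Sephs2, near Id3 and near Cyp11a1. The domain near Id3, an inhibitor of E-protein transcription factors, at chr4:136084724-136117832, was 83.6, 83.2 and 83.7% covered by H3K36me2 in WT and 80.3, 42.5 and 30.0% in KO. The domain in Ralgds had 66.3, 72.7 and 83.1% in WT and 42.4, 17.1 and 11.9% in KO.

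H3K36me2 coverage was also set against the presence of KDM2A in domains of like width. Among domains of 10 to 15 kb, the 497 with no KDM2A peak in any list had KO coverages of 36.8, 23.3 and 20.1%, and the 121 with a peak in all 6 lists had 51.3, 17.4 and 17.8%. The classes differed in other ways, since 40.5% of the latter held a CpG island and 46.3% a gene start, against 1.21 and 3.42% of the former. The order of these classes was opposite in KO replicate 1 and in the other KO lists. The corresponding WT coverages were 51.9, 67.3 and 66.2% without KDM2A and 66.4, 70.2 and 75.2% with it.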

How the data were processed

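ChIP-seq of H3K36me2 and KDM2A was performed in 3 libraries per genotype, and 12 peak lists were used. The inputs were not examined separately. Read alignment by the authors used BWA and GRCm38, and MACS2 in the nf-core/chipseq pipeline gave 1 broad peak list per library (the MACS2 version is not given in the sources used here). The deposited fold of a peak is a ratio over its background. The deposited lists also give −log10 p-values and −log10 q-values, and a score that was not used. Depth is unknown, so no counting interval is given.

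The members and lists described here were chosen with earlier results of these data known. Merging, coverage and peak positions came from scripts in Python 3.11.15 (pandas 2.3.3, numpy 2.4.6, scipy 1.17.1). Genes were from GENCODE M21, and "near" names the closest protein-coding start. Islands of CpGs were found in GRCm38.p6, repeats masked, by a running score (17 per CpG, −1 per other base), keeping segments over 200 bp with at least 50% GC and over 0.6 of the expected CpGs. A peak overlapping an island by 1 bp was at that island. Single values were compared over the 6 libraries with a two-sided exact permutation test, and 8 such KDM2A measures were adjusted together by Benjamini-Hochberg. Log2 fold entered limma 3.58.1 under R 4.3.3 (eBayes with trend). The limma step, tested on simulated data from the 5236 KDM2A intervals with 200 changed, recovered 93% of changes of 1 and 20% of changes of 0.5 on the log2 scale. Named were the 10 widest domains, the 5 with the highest and the 5 with the lowest mean KO coverage, the 20 genes with the most domain bases, the 10 genes over 20 kb with the largest share, listed genes touching a domain, the 5 domains with most 6-library KDM2A intervals, and the 3 such intervals most changed each way. Alternatives varied the width, joining distance, peak strength, list length and libraries. A gene among those so named is not reported here.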

Additional observations from a re-analysis of the deposited data

Results flagged for a closer look

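The median fold of KDM2A peaks in the domains had KO minus WT values of opposite sign by sex, with 0.141 in the male libraries and −0.0884 in the female libraries on average. Over all 6 libraries the genotypes did not separate (exact permutation p = 0.8, adjusted p = 1). Peaks outside the domains had the same signs, with 0.179 in males and −0.0706 in females, so the split is not particular to the domains. These folds are not centred on each library. Within libraries, the median fold inside minus that outside had KO minus WT of −0.0375 in males and −0.0178 in females, the same sign in both. Whether the sexes differ was not tested, because only 1 male library exists per genotype.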

How the results depend on the processing

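The number of domains followed the width limit and the peaks admitted. It was 9093 at 5000 bp, 731 at 20000 bp, 5140 when peaks up to 1000 bp apart were joined, and 507 with peaks of −log10 q of at least 2, where mean KO coverage was 12.1%. It was 2231, 1761 and 1778 without WT replicate 1, 2 and 3. Mean KO coverage otherwise moved by less than 1 SD between KO libraries, and lay between 24.6 and 37.3% when 1 replicate was left out (24.6% without KO replicate 1). In every alternative run, the KO mean minus the held-out WT mean stayed negative, and so did the difference in KDM2A density ratio (−1.06 to −0.642 leaving out 1 replicate, −2.21 with −log10 q of at least 2). The off-island ratio difference, −0.112, was 0.126 without WT replicate 2, 0.0636 without KO replicate 2 and −1.32 with equal numbers of the strongest peaks, and the cause was not tested. These off-island alternatives, and the following leaving-out of KO lists, were chosen after seeing the data. The 387 KO domains became 80, 130 and 206 without KO replicate 1, 2 and 3, and the 2110 domains where KO lay wholly below WT became 2137 to 2704. No alternative of the limma test gave an adjusted p under 0.05, and unadjusted calls in domains numbered 6 to 28.

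In fold centred on each library, same-numbered WT and KO KDM2A libraries did not deviate together (correlations from −0.016 to 0.0015). Centring removes shifts of a whole library, so this cannot decide whether the numbers pair the libraries. With a replicate block the density ratio difference was −0.815 (exact sign flips, p = 0.25, the smallest 3 pairs allow), and limma with the replicate block called 0 intervals.

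Depth is unknown, WT peaks set the domain borders, and fold is not comparable between libraries on an absolute scale.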
